A study of Mus musculus with 6 samples.

Results

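The genes described here encode phase I and phase II xenobiotic enzymes in the colon of DSS-treated mice that lacked or retained Nedd4l in intestinal epithelial cells. Members were the protein-coding genes named as cytochrome P450 (CYP) families 1 to 4, UDP-glucuronosyltransferase (UGT) families 1 and 2, cytosolic glutathione S-transferase (GST) or cytosolic sulfotransferase (SULT) genes, with a mean of at least 10 normalized counts over the 6 libraries. This left 54 of 82 genes that matched by name and biotype, and 54 of the 27202 genes listed. They were 26 of 44 CYP genes, 3 of 8 UGT genes, 18 of 20 GST genes and 7 of 10 SULT genes. Names had to end in a number, so UGT genes such as Ugt1a6a and Ugt1a7c were not matched. Beside name and biotype, the members were thus chosen by their mean over all 6 libraries; the rule does not use the difference between genotypes, but it was written with earlier results of these data known.

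In phase I, CYP enzymes insert oxygen into lipophilic compounds such as drugs, dietary chemicals, fatty acids and steroids. In phase II, UGT enzymes attach glucuronic acid, GST enzymes attach glutathione and SULT enzymes attach sulfate, which makes most products more soluble and easier to export. Intestinal epithelial cells meet these compounds before the liver does, and the nuclear receptors PXR and CAR, as well as the aryl hydrocarbon receptor and NRF2, are known to set the transcription of many of these genes.

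RNA was sequenced from whole colon of 3 mice with the genotype Nedd4l fl/fl Villin Cre (labelled cKO) and of 3 Nedd4l fl/fl littermates (labelled WT). Nedd4l encodes an E3 ubiquitin ligase, and Cre under the Villin promoter acts in epithelial cells, so the Nedd4l alleles of the other cells in the tissue were not targeted. The WT mice carried the floxed alleles without Cre. All mice were 8 to 10 weeks old and were given 2% dextran sulfate sodium (DSS), which injures the colonic epithelium. Colon was taken on day 7, and no library came from a mouse without DSS. The comparison asks how the epithelial loss of Nedd4l changed colonic transcripts during this colitis. In bulk tissue, fewer epithelial cells and less RNA per epithelial cell cannot be told apart.

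Values were normalized counts, that is, counts per gene divided by 1 size factor for each library, and the libraries totalled 14914367 to 17547270 in units of their smallest value. Nedd4l stood at 476, 942 and 566 normalized counts in cKO1, cKO2 and cKO3, against 1241, 1271 and 1266 in WT1, WT2 and WT3. All 3 cKO libraries lay below all WT libraries, and cKO2 was the nearest to them. The log2 fold change of Nedd4l (cKO minus WT) was −0.99 (SE 0.24, limma adjusted p = 0.225), and it passed the threshold of 0.05 without cKO2 (−1.28, limma adjusted p = 0.0131). Over all genes tested, cKO2 correlated more closely with the WT libraries (mean Pearson r across genes 0.977) than with the other cKO libraries (0.966). The latter mean includes cKO1, the library with the lowest mean r to its own genotype (0.963) and to the opposite one (0.948). The mean r of cKO3 was only slightly higher with the other cKO libraries than with the WT libraries. The presence of epithelium in the tissue was checked with 12 pan-epithelial markers, all of which were tested. Their summed level lay between 235659 and 270789 in cKO and between 256998 and 274219 in WT libraries.

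The enzyme genes were mostly lower in cKO than in WT colon, but with wide differences among the cKO mice. Of the 54 members, 46 had a log2 fold change below 0 and 8 above 0, against 8086 of the 16246 genes tested (49.8%) below 0. The median log2 fold change was −0.41 over the members and 0.00132 over all genes. The counts of 46 and 8 were also found with quantile normalization and with a trimmed mean scaling. No member passed an adjusted p of 0.05 in either direction, where limma called 0 of 16246 genes lower (0.0%) and 0 higher (0.0%). Before adjustment, p was under 0.05 in 10 members (18.5%) that were lower, against a background of 7.08%, and in 1 that was higher, against 6.91%. In 9 members (16.7%) all 3 cKO values lay below all 3 WT values, against 10.9% of all genes, and in 1 member (1.85%) they lay above, against 10.5%.

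The cKO libraries did not contribute equally. In cKO1, 46 members lay below all 3 WT values, and in cKO3, 42 did. In cKO2, 11 members lay below all WT values, 25 within their range and 18 above it. For all genes tested the shares below all WT values were 33.2%, 27.1% and 29.3% in cKO1, cKO2 and cKO3, and for the members they were 85.2%, 20.4% and 77.8%. The median member differed from the WT mean by −0.92 on the log2 scale in cKO1, by 0.03 in cKO2 and by −0.39 in cKO3, while the WT libraries lay between −0.08 and 0.05. Of the 54 members, 41 had their lowest cKO value in cKO1 and 44 their highest in cKO2. The SD of the log2 values was larger among cKO than among WT libraries for 50 members (92.6%), against 56.6% of all genes, with a median SD of 0.55 in cKO and 0.19 in WT. The summed normalized count of all members was 25621, 48904 and 34529 in the cKO libraries and 50101, 43608 and 46682 in the WT libraries. The lower sums were those of cKO1 and cKO3. These are the libraries with the lower Nedd4l levels; what part this has in the enzyme values was not tested. Without cKO2, 32 members were lower at a p under 0.05 before adjustment, against 8.77% of all genes, and 3 of them passed the adjusted threshold, against 0.32%. Without cKO1, 6 members were lower at that p, against 6.32%. Leaving out cKO3, WT1, WT2 or WT3 instead gave 6, 6, 7 and 6 members, against 4.79%, 5.26%, 4.55% and 5.05%. Limma also weighted each library by its scatter about its genotype mean in these same values (array weights), without a separate measure of quality. With these weights, 7 members were called lower, against 2.27%, and 1 higher, against 1.61%.

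**Figure D1:**
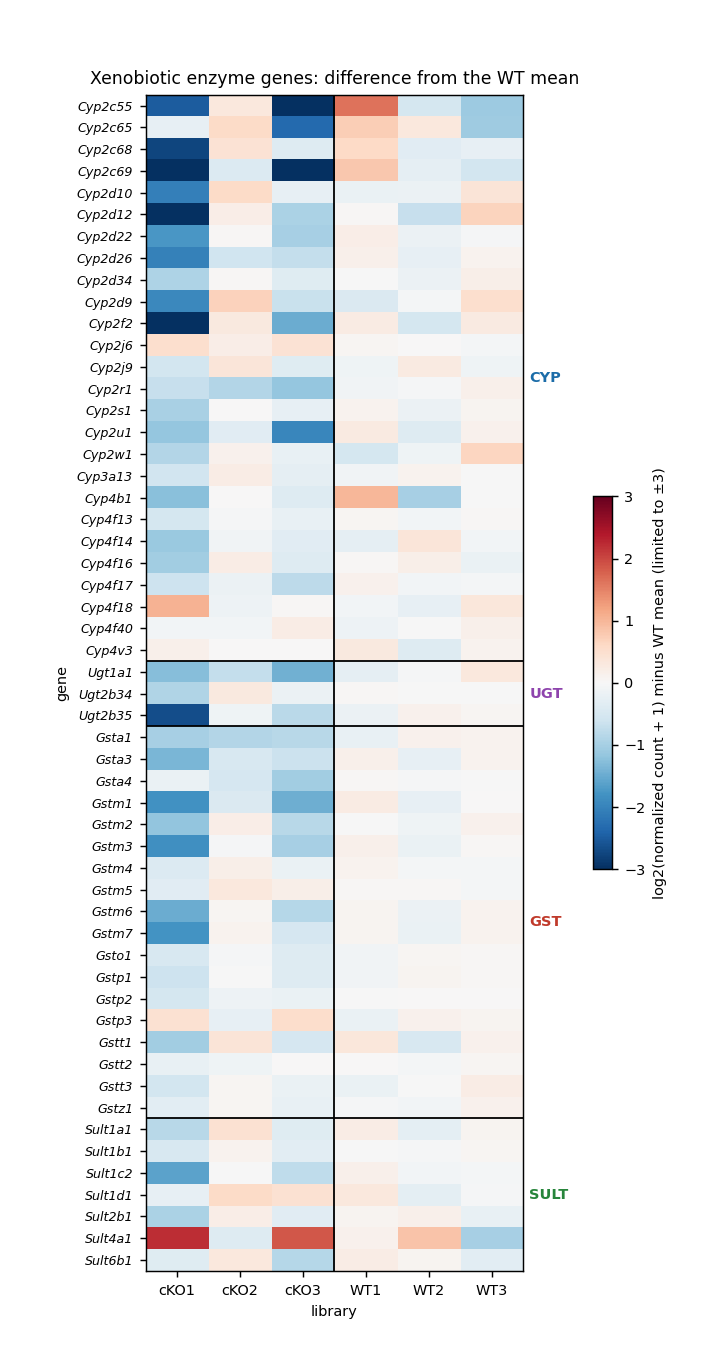
Log2(normalized count + 1) minus the mean of the 3 WT libraries for each of the 54 members (rows, by family) in each of the 6 libraries (columns); blue is lower and red is higher than the WT mean, and colors are limited to ±3. The cKO1 and cKO3 columns are mostly blue, with 46 and 42 members below all WT values, and 11 members lie below all WT values in cKO2.

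The CYP family was lower in 22 of 26 members and higher in 4, and its median log2 fold change was −0.54. Before adjustment, p was under 0.05 in 5 of the 26 genes, of which 4 (15.4%) were lower, against 7.08% of all genes, and 1 was higher, against 6.91%. In 3 CYP members (11.5%) all cKO values lay below all WT values, which is near the 10.9% of all genes. In 1 member (3.85%) they lay above, against 10.5%. Cyp2r1, the microsomal vitamin D 25-hydroxylase, had the smallest p in the family. It stood at 31.6, 27.6 and 22.7 normalized counts in the cKO libraries and at 48.4, 50.4 and 57.9 in the WT libraries. Its genotypes did not overlap, and cKO2 was as low as the other cKO libraries. The log2 fold change was −0.92 (SE 0.25, limma adjusted p = 0.247).

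Cyp2j6 belongs to a subfamily that oxidizes arachidonic acid and was the one member that was higher without overlap. It measured 866, 691 and 821 in the cKO libraries and 626, 614 and 578 in the WT libraries, a log2 fold change of 0.38 (SE 0.11, limma adjusted p = 0.256). Cyp2j9, 1 of the 2 members of this subfamily and its neighbor within 1 Mb on chromosome 4, had a log2 fold change of −0.19 (SE 0.33). Cyp2u1, which hydroxylates long-chain fatty acids, was scarce at 9.59, 17.7 and 5.16 in cKO and 27.7, 17.1 and 25.0 in WT libraries (log2 fold change −1.16, SE 0.47, limma adjusted p = 0.341). Here cKO2 overlapped the WT range.

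The Cyp2d genes, a subfamily of drug-oxidizing enzymes, form a cluster on chromosome 15. The median log2 fold change of its 6 members was −0.77, and each of them was below 0. Cyp2d26 measured 55.6, 151 and 138 in the cKO libraries and 254, 192 and 247 in the WT libraries. It was the Cyp2d member whose genotypes did not overlap (log2 fold change −1.11, SE 0.38, limma adjusted p = 0.310). Cyp2d34 had the highest level per kb of gene length in the CYP family, 1326 normalized counts per kb over all libraries. Its values were 2173, 4240 and 3207 in cKO and 4129, 3671 and 4673 in WT libraries, so that cKO2 lay within the WT range (log2 fold change −0.42, SE 0.24, limma adjusted p = 0.466). The median difference of the 6 Cyp2d genes from the WT mean was −1.97 in cKO1, 0.11 in cKO2 and −0.69 in cKO3.

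The 4 Cyp2c members, in 1 cluster on chromosome 19, had the lowest subfamily median, −1.84, and were also the most variable. Cyp2c55, the most abundant of them per kb (850 normalized counts per kb), measured 316, 2221 and 24.8 in the cKO libraries and 5528, 1242 and 843 in the WT libraries. Its highest WT value was 6.56 times its lowest, and its highest cKO value 89.7 times its lowest. Its log2 fold change of −2.77 was within this spread (SE 1.85, limma adjusted p = 0.535) and ran from −4.31 to −1.10 when 1 library was left out. Cyp2c69 was at 0 in cKO1 and cKO3, at 15.5 in cKO2, and at 37.5, 17.1 and 14.0 in the WT libraries. Its log2 fold change of −3.10 (SE 1.13, limma adjusted p = 0.316) depends on the pseudocount of 1, because 2 of its values were 0.

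Promoter sequence was looked up in RefSeq (GRCm38.p6), which gave windows of 250 bases before to 50 bases after a start for 46 of the 54 members, 59 windows in all because some members have several. Of the 59, 4 windows (6.78%), of Cyp2c65, Cyp2c68, Cyp2c69 and Sult1b1, held CAAAGTCCA, a form of the site of the nuclear receptor HNF4, on either strand, against 0.475% of 32851 windows. The motifs searched here were chosen with the members known, and a match is a description of letters and not a bound site. Of these windows, 3 belong to the Cyp2c cluster, and those of Cyp2c68 and Cyp2c69 were identical at 258 of 276 aligned bases (93.5%), so they are near copies of 1 sequence. These windows are shown, from 250 bases before to 30 bases after the start, because they are the ones of the most variable subfamily, and capitals mark the match. Cyp2c65 lies at chr19:39060756-39061035 on the plus strand, Cyp2c68 at chr19:39741072-39741351 and Cyp2c69 at chr19:39886740-39887019 on the minus strand.
Cyp2c65: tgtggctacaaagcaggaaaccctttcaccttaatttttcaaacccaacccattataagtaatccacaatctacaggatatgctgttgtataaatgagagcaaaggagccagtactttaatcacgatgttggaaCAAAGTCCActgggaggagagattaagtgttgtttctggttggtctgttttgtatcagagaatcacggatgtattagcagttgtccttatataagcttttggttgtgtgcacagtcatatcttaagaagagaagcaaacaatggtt
Cyp2c68: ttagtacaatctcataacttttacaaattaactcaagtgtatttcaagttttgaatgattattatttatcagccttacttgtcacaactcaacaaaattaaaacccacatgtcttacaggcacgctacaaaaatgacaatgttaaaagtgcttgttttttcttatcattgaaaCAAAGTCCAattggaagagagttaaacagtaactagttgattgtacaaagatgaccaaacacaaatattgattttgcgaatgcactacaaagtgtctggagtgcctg
Cyp2c69: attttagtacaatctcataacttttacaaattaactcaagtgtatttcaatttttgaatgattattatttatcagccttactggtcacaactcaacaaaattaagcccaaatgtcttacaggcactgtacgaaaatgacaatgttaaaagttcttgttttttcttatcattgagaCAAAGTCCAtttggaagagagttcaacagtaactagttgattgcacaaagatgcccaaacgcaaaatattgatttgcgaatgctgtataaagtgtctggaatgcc
In these windows the matches began 116, 77 and 75 bases before the start. The values of the 3 genes did not follow one order over the cKO libraries. Cyp2c65 measured 43.1, 76.3 and 9.28 in cKO and 85.9, 63.9 and 24.0 in WT libraries (log2 fold change −0.67, SE 0.84). Cyp2c68 measured 82.4, 757 and 429 in cKO and 846, 443 and 477 in WT libraries (log2 fold change −0.91, SE 0.84).

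The Cyp4f genes, whose products hydroxylate leukotrienes and fatty acids, were lower in 4 of 6 members, and their median log2 fold change was −0.33. Cyp4f14, next in level to Cyp2d34 and Cyp2c55 in the CYP family (669 normalized counts per kb), measured 851, 1716 and 1447 in cKO and 1532, 2371 and 1733 in WT libraries (log2 fold change −0.52, SE 0.30, limma adjusted p = 0.463). Cyp4f17 did not overlap between genotypes, at 34.5, 47.5 and 30.9 in cKO and 59.3, 50.4 and 51.9 in WT libraries. Cyp4f18, an enzyme known from myeloid cells, measured 261, 113 and 129 in cKO and 119, 106 and 159 in WT libraries, with the high value in cKO1. The 6 neutrophil markers, 5 of them above the minimum, summed to 6752, 150 and 998 in the cKO libraries and to 97.2 to 137 in the WT libraries, and their part in the Cyp4f18 values was not tested.

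The UGT family had 3 members, all of them lower, and their median log2 fold change was −1.14. Ugt1a1, the enzyme that conjugates bilirubin, measured 16.3, 24.3 and 14.4 in the cKO libraries and 33.6, 39.6 and 50.9 in the WT libraries. Its genotypes did not overlap (log2 fold change −1.14, SE 0.32, limma adjusted p = 0.251). The Ugt1a genes splice different first exons to a shared set of later exons, and 57.2% of the 100-base stretches of the Ugt1a1 transcripts also occur in Ugt1a2, so its level is uncertain. Ugt2b34 was the abundant UGT member, with 1195 normalized counts per kb. It measured 2915, 6707 and 4873 in cKO and 5566, 5402 and 5457 in WT libraries. The WT values were close together, while cKO2 was above and the other cKO libraries were below them. The log2 fold change of Ugt2b34 was −0.26 (SE 0.29, limma adjusted p = 0.704) and changed its sign to 0.06 without cKO1. Ugt2b35, its neighbor on chromosome 5, measured 76.7, 451 and 282 in cKO and 433, 535 and 512 in WT libraries (log2 fold change −1.20, SE 0.64, limma adjusted p = 0.448); without cKO1 it was −0.46.

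**Figure D2:**
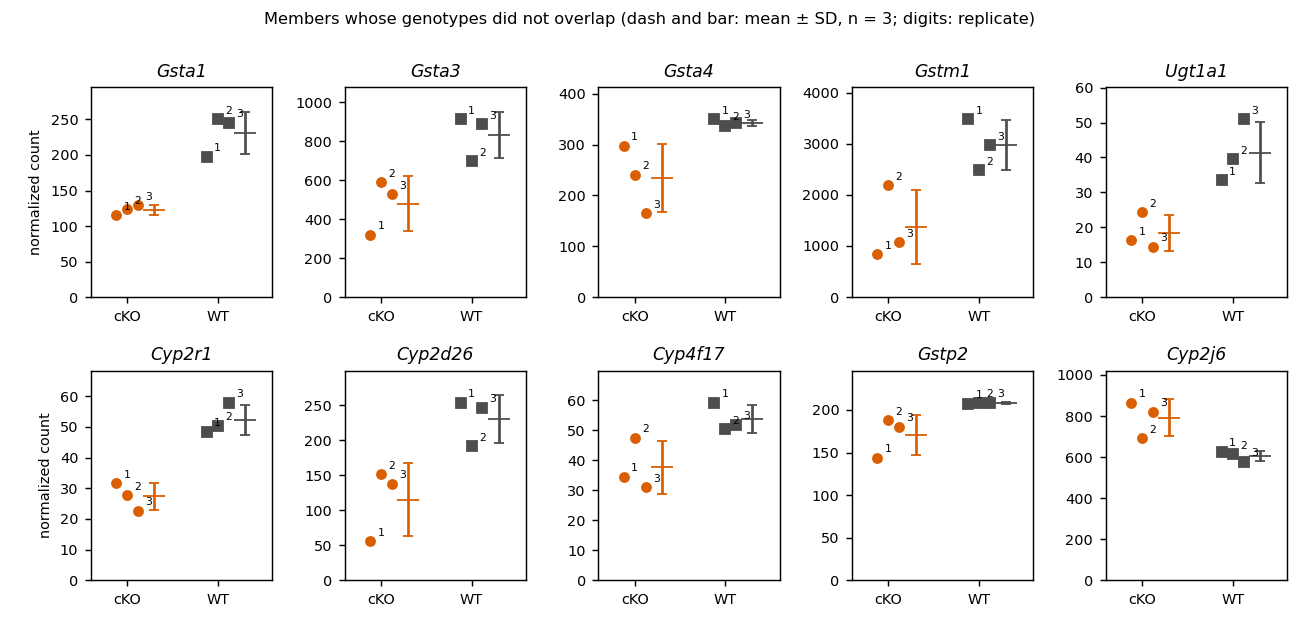
Normalized counts (vertical axes, from 0) of the 10 members whose genotypes did not overlap, with 1 point for each cKO (orange circles) and WT (grey squares) library, digits for the replicate number, and the mean ± SD (n = 3). Gsta1, Gsta3 and Gsta4 are lower in all 3 cKO libraries, cKO2 included, and Cyp2j6 is higher.

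The GST family was lower in 16 of 18 members and higher in 2 (Gstm5 and Gstp3), and its median log2 fold change was −0.36. Before adjustment, p was under 0.05 in 5 of the 18 (27.8%), all lower, against 7.08% of all genes, and 5 were lower without overlap between genotypes, against 10.9%. The alpha class stood out in its separation. All 3 members, Gsta1, Gsta3 and Gsta4, lay below all WT values in every cKO library, and their median log2 fold change was −0.83. Gsta1 measured 115, 124 and 129 in the cKO libraries and 198, 250.1 and 246 in the WT libraries, a mean of 123 ± 7.04 against 231 ± 29.2 (SD, n = 3 each). The cKO values were close together, and the log2 fold change of −0.90 (SE 0.16) had the smallest p of all members (limma adjusted p = 0.144). Gsta1 shares most of its transcript sequence with a near copy, Gm3776, so its level is uncertain.

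Gsta3, whose product conjugates reactive epoxides of dietary toxins, measured 319, 590.4 and 527 in the cKO libraries and 912, 698 and 886 in the WT libraries (log2 fold change −0.83, SE 0.24, limma adjusted p = 0.276). Gsta4, which conjugates the aldehydes of lipid peroxidation, measured 298, 241 and 165 in the cKO libraries against 349.6, 337 and 342 in the WT libraries (log2 fold change −0.59, SE 0.21, limma adjusted p = 0.310). For Gsta4 the lowest library was cKO3. The order of the cKO libraries thus differed among the alpha genes, and cKO2 was below the WT range in each of the 3. Gsta4 and Gsta1 lie within 1 Mb on chromosome 9, and Gsta3 lies on chromosome 1. Gsta2, the other alpha gene matched by name, was under the minimum with a mean of 1.47 normalized counts.

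The promoter windows of Gsta1 and Gsta3 are shown because these genes were low in every cKO library, and that of Cyp2j6 because it was high in every cKO library. GCGTG, the core of the site bound by the aryl hydrocarbon receptor, was searched on both strands and found in 17 of the 59 member windows (28.8%), which belong to 15 of the 46 members, against 32.4% of all windows. TGACNNNGC, the core of the antioxidant response element bound by NRF2, was found in 7 of the 59 windows (11.9%), against 12.4%. GTTAAT, a part of the site of HNF1, was found in 9 of the 59 (15.3%), against 7.10%. The shares of the first 2 motifs were near those of all windows. Capitals mark GCGTG in Gsta1 (chr9:78230419-78230698, plus strand) and TGACNNNGC, on the plus strand in Gsta3 (chr1:21240335-21240614, plus strand) and on the opposite strand in Cyp2j6 (chr4:96553622-96553901, minus strand).
Gsta1: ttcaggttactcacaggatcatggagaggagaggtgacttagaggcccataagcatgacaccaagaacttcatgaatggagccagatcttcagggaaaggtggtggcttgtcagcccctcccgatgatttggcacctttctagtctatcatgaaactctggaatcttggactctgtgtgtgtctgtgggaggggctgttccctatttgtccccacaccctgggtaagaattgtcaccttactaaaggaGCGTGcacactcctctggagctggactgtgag
Gsta3: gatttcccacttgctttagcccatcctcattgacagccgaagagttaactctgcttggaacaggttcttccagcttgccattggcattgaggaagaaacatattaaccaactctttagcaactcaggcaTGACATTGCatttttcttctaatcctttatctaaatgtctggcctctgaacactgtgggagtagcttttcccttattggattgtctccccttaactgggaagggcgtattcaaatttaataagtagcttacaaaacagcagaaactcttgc
Cyp2j6: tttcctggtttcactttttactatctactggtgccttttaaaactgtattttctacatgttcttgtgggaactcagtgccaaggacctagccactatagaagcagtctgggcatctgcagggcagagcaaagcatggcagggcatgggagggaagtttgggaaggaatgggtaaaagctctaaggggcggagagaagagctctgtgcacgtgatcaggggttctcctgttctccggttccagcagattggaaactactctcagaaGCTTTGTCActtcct
The match in Gsta1 spanned the start, that in Gsta3 began 121 bases before it, and that in Cyp2j6 began 15 bases after it. Gsta3 and Cyp2j6 held the same motif and differed from WT in opposite directions.

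The mu class, Gstm1 to Gstm7, is a cluster of 7 genes on chromosome 3, of which 6 were lower; the median log2 fold change of the class was −0.73. Gstm1 measured 842, 2190.1 and 1072 in the cKO libraries and 3475, 2483 and 2968 in the WT libraries. It was the mu gene whose genotypes did not overlap (log2 fold change −1.23, SE 0.37, limma adjusted p = 0.291). Without cKO2, Gstm1 was at −1.63 and passed the threshold (limma adjusted p = 0.0262), as did Gstm2 at −1.01 (limma adjusted p = 0.0359). Gstm2 measured 480.2, 1238 and 608 in cKO and 1083, 993 and 1193 in WT libraries. In both genes cKO2 held the highest cKO value, so leaving it out could only lower their cKO mean. With 1 library left out, the log2 fold change of Gstm1 ran from −1.63 to −0.94. The median of the mu genes differed from the WT mean by −1.49 in cKO1, by 0.11 in cKO2 and by −0.84 in cKO3.

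The most abundant members per kb were a pi and an omega class enzyme. Gstp1, the main pi class enzyme, had 3089 normalized counts per kb and measured 1689, 2557 and 1990 in cKO and 2398, 2748 and 2649 in WT libraries (log2 fold change −0.34, SE 0.15, limma adjusted p = 0.358). Gstp2 measured 144, 188 and 181 in cKO and 207, 209 and 209 in WT libraries without overlap (log2 fold change −0.29, SE 0.15, limma adjusted p = 0.418). Gstp3 in the same cluster was higher in cKO1 and cKO3, at 185 and 194, and stood at 113 in cKO2 and at 117, 147 and 141 in the WT libraries. Gsto1, a thiol transferase and dehydroascorbate reductase, had 2489 normalized counts per kb. It measured 3861, 5248 and 4102 in cKO and 5042, 5577 and 5554 in WT libraries (log2 fold change −0.30, SE 0.12, limma adjusted p = 0.337). The 3 theta genes, Gstt1, Gstt2 and Gstt3, had a median of −0.23, and Gstz1, which also acts in tyrosine breakdown, was at −0.16 (SE 0.13).

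**Figure D3:**
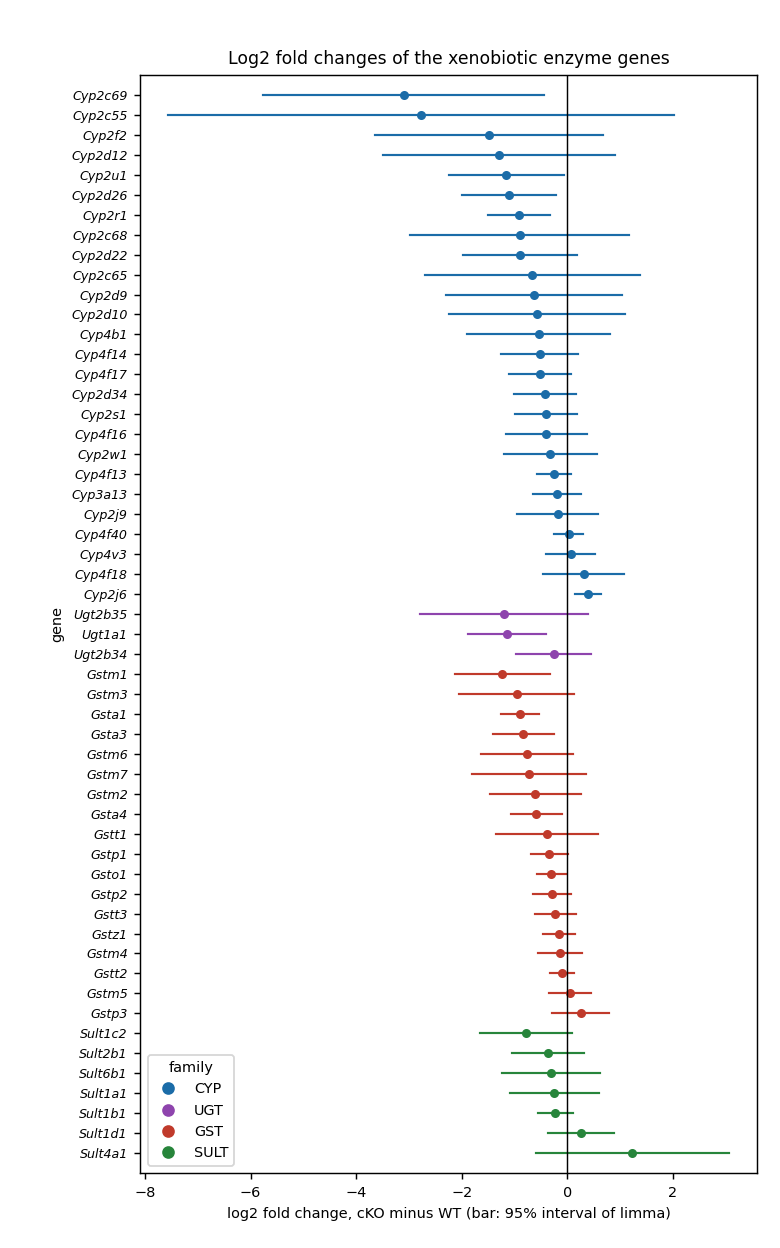
Log2 fold change (horizontal axis, cKO minus WT) of each member with its 95% interval from limma, ordered within the SULT, GST, UGT and CYP families by color. Of the 54 points, 46 lie below 0; the interval of Gsta1 runs from −1.27 to −0.54 and that of Cyp2c55 from −7.55 to 2.01.

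The SULT family was lower in 5 of 7 members and higher in 2, its median log2 fold change was −0.25, and 0 of its members had an unadjusted p under 0.05. Sult1b1, which sulfates phenols and thyroid hormones, measured 1710.1, 2554 and 1916 in cKO and 2342, 2320.2 and 2476 in WT libraries (log2 fold change −0.23, SE 0.14, limma adjusted p = 0.483). Sult1c2 measured 64.2, 195 and 116 in cKO and 218, 185 and 188 in WT libraries (log2 fold change −0.79, SE 0.37, limma adjusted p = 0.386). Sult1a1, a phenol sulfotransferase, measured 722, 1772 and 1012 in cKO and 1506, 1051 and 1374 in WT libraries, and its log2 fold change of −0.25 (SE 0.34, limma adjusted p = 0.762) turned to 0.05 without cKO1. In each of these 3 genes cKO2 was the highest cKO library.

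Sult2b1, which sulfates cholesterol and related sterols, measured 230.1, 512 and 351 in cKO and 475, 493 and 379 in WT libraries (log2 fold change −0.37, SE 0.28, limma adjusted p = 0.575). Sult1d1, which sulfates catecholamines, was on the other side at 1099, 1958 and 1789 in cKO and 1642, 1072 and 1271 in WT libraries (log2 fold change 0.26, SE 0.26, limma adjusted p = 0.665). Sult4a1, known mainly from the brain, measured 45.1, 6.63 and 35.1 in cKO and 9.88, 17.1 and 3.99 in WT libraries (log2 fold change 1.23, SE 0.78, limma adjusted p = 0.494). Sult1b1 and Sult1d1 lie in 1 cluster with Ugt2b34 and Ugt2b35 on chromosome 5 and had fold changes of opposite sign.

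**Figure D4:**
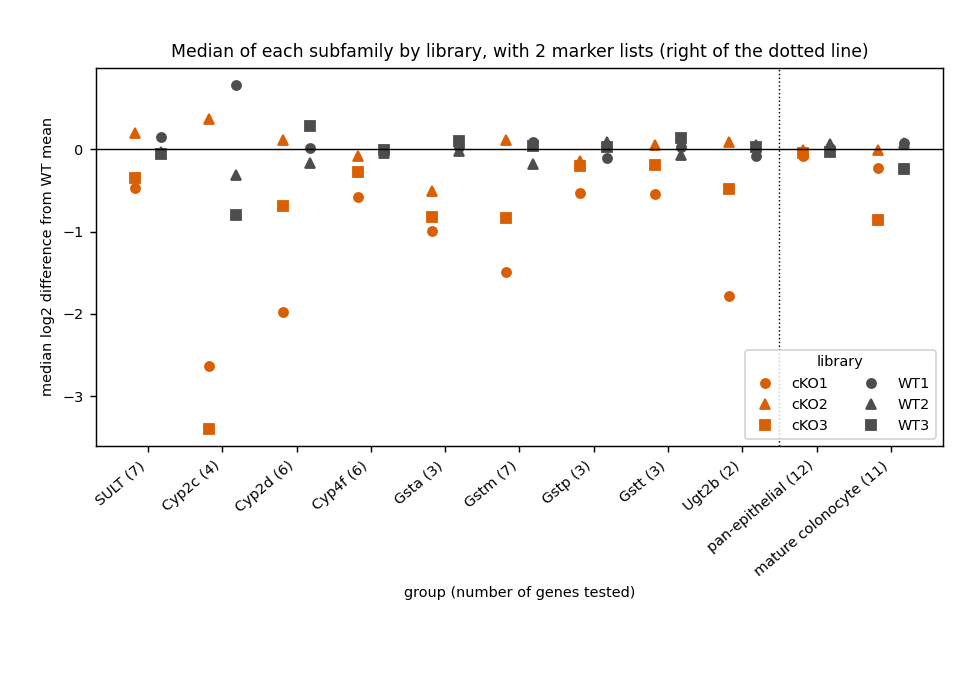
Median log2 difference from the WT mean (vertical axis) over the members of the SULT family and of each subfamily with 2 or more members except Cyp2j, in each cKO (orange) and WT (grey) library, with the pan-epithelial and mature colonocyte markers to the right of the dotted line. The alpha class (Gsta) lies below 0 in all 3 cKO libraries, from −0.99 to −0.51, while cKO2 is at or above 0 for the Cyp2c, Cyp2d, Gstm, Gstt, Ugt2b and SULT groups.

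Genes around these families were read from 5 lists. Of 44 tested phase I genes outside the CYP families, 35 were lower and 9 higher (median log2 fold change −0.38); before adjustment, p was under 0.05 in 11 of the lower genes and 2 of the higher ones, against 7.08% and 6.91% of all genes. Ces1f, a carboxylesterase, measured 144, 251 and 84.6 in cKO and 794, 490.3 and 558 in WT libraries (log2 fold change −2.04, SE 0.41, limma adjusted p = 0.202). Aldh1a7 was at −1.44 (SE 0.31, limma adjusted p = 0.192) and Aldh1a1, a retinal dehydrogenase, at −0.58 (SE 0.14, limma adjusted p = 0.211). The genotypes did not overlap in these 3 genes. Of 20 tested phase II genes that were not members, 16 were lower and 4 higher (median −0.14). Gclm, the modifier subunit of the enzyme that starts glutathione synthesis, was at −0.29 (SE 0.08, limma adjusted p = 0.258), Ugt1a6a at −0.83 (SE 0.24, limma adjusted p = 0.267) and Ugt1a7c at −0.50 (SE 0.20, limma adjusted p = 0.337). Ugt1a6a and Ugt1a7c are UGT genes that the rule missed because their names end in a letter. Like Ugt1a1 they use the shared later exons, so their levels are uncertain and not independent of its level.

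The medians of the drug transporters, regulators and NRF2 targets lay nearer to 0 than that of the phase I list (−0.38), with genes on both sides. Of 18 transporters, 11 were lower and 7 higher (median −0.16), and the 3 with the smallest p were the exporter Abcc3 (−0.34, SE 0.15), Slc22a18 (−0.26, SE 0.13) and Slco4a1 (−0.28, SE 0.15). Of 27 xenobiotic regulators, 17 were lower and 10 higher (median −0.07). Nr1i2, which encodes PXR, measured 837, 1092 and 1085 in cKO and 1204, 1108 and 1250.2 in WT libraries (log2 fold change −0.25, SE 0.12), Rxra, its partner, was at −0.18 (SE 0.09), and Tiparp, a target of the aryl hydrocarbon receptor, was at 0.32 (SE 0.11). Of 21 NRF2 targets outside the member families, 12 were lower and 9 higher (median −0.09), and before adjustment p was under 0.05 in 6 of the lower genes and 2 of the higher ones, against the same 7.08% and 6.91%. Me1, which makes NADPH, was at 0.95 (SE 0.23) and the carbonyl reductase Cbr3 at −1.47 (SE 0.45). No gene of these 5 lists passed an adjusted p of 0.05 in limma. Some genes, Gclm and Cbr3 among them, stand in 2 of the lists.

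Markers of cell types moved with some of these values, and their part in the enzyme results was not tested. The 12 pan-epithelial markers had a median log2 fold change of −0.06, with 9 lower and 3 higher, and differed from the WT mean by a median of −0.08, −0.02 and −0.05 in cKO1, cKO2 and cKO3. Of 12 mature colonocyte markers 11 were tested, 8 lower and 3 higher (median −0.38), with sums of 171513 to 252317 in cKO and 212914 to 219800 in WT libraries. All 7 fibroblast markers were higher, with sums of 21388 to 43312 in cKO and 10935 to 18526 in WT libraries, and all 5 tested neutrophil markers were higher. All 6 macrophage and monocyte markers (sums of 8763 to 9702 in cKO and 5596 to 7627 in WT libraries), 4 of 5 tested mast cell markers (467 to 1697 and 788 to 861) and 4 of 5 endothelial markers (2074 to 3432 and 1421 to 2121) were higher, and all 6 smooth muscle markers were lower (5395 to 10588 and 4824 to 20465). The 9 goblet cell markers summed to 101504, 467632 and 218437 in cKO and to 162317 to 321335 in WT libraries, lowest in cKO1 and highest in cKO2, as most members were among the cKO libraries. Of 7 crypt base markers tested of 8, 6 were lower, with sums of 2833 to 4299 in cKO and 4152 to 4693 in WT libraries. Hepatocyte markers were scarce, with 2 of 6 above the minimum and a sum of at most 331 in any library. The goblet markers were not alone in their order. Among the cKO sums, those of pan-epithelial, mature colonocyte, crypt base, mast cell and hepatocyte markers were lowest in cKO1 and highest in cKO2 too. The same order held for pancreas acinar markers (1 of 6 tested) and distal colon segment markers (4 of 6 tested). The segment markers summed to 3111, 5659 and 5380 in cKO1, cKO2 and cKO3 and to 4811 to 5524 in WT libraries.

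Some members share sequence with other genes, and how reads that fit several genes were counted was not given in the sources used here. Of the 54 members, 30 shared no 100-base stretch of their transcripts with another gene, and 6 shared over 20%. These were Gsta1 (81.8%, mostly with Gm3776), Gstp2 (63.5%), Ugt1a1 (57.2%), Gstp1 (52.8%), Cyp2c69 (36.3%) and Gstt3 (23.9%), whose levels are uncertain for this reason. Gm3776, the near copy of Gsta1, measured 60.4, 57.5 and 39.2 in cKO and 88.9, 72.0 and 68.9 in WT libraries and was, like Gsta1, without overlap. Gsta3 and Gsta4 are not among the 6.

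The minimum mean of 10 kept Cyp2c69 (14.0) and Cyp4b1 (14.4) just inside and left Gsto2 (8.27) and Cyp2c23 (8.12) just outside. Among the 28 matching genes under the minimum was Cyp1a1, the classic target of the aryl hydrocarbon receptor, with 1.92, 2.21 and 1.03 in cKO and 2.96, 3.60 and 4.99 in WT libraries, close to 0 in every library. Cyp2e1, Cyp1b1, Cyp2a5 and Cyp4a10 were also under it. Of the 54 members, 36 lie in 9 clusters of genes at most 1 Mb apart, so that neighboring members, which also resemble each other in sequence, are not independent of each other.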

How the data were processed

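Colon RNA from 3 cKO and 3 WT mice was analysed, grouped by GEO's labels. Per the labels, RNA was extracted with TRIzol; HISAT2 2.0.5, featureCounts 1.5.0-p3 and a human genome build are listed in the submitters' processing notes, but 97.2% of the gene identifiers found in GENCODE M21 (GRCm38) have the same coordinates there. The authors deposited 1 table of normalized counts, a signal equal to counts divided by 1 size factor for each library; every value was a whole multiple of the library's smallest value (0.900 to 1.11). A column of other values, the gene length, was used for levels per kb. Columns with the authors' own genotype means, fold changes and p-values were not used. Whether counting used strand is not given in the sources used here.

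Values were transformed to log2(value + 1), so that fold changes of scarce genes are understated, and 16246 genes, whose mean was 10 or more, were fitted in limma 3.58.1 under R 4.3.3 (lmFit, eBayes with trend and robust settings) with Benjamini-Hochberg adjustment over all of them and a threshold of 0.05. A single value of 3 against 3 libraries cannot go below p = 0.1 in an exact two-sided permutation test. The labels do not say more than that the libraries are of separate samples, so p-values measure the spread between these 6 samples. Alternatives changed the normalization, pseudocount, low-value filter, weights, replicate block and libraries.

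The members and all gene lists were chosen with earlier results of these data known. Named were, in each family, the 5 members with the smallest p and the 3 with the highest level per kb, members without overlap whose mean was 50 or more, members next to the minimum, and the 3 smallest p of each pathway list; Cyp2j9, Cyp2c65, Cyp2c68, Cyp4f17, Cyp4f18, Gstm2, Gstm5, Gstp3, the theta GST genes, Gstz1, Gm3776 and the genes named under the minimum other than Gsto2 and Cyp2c23 were chosen after their values were seen. Promoters were RefSeq windows, and matplotlib 3.10.9 (Python 3.11.15) drew the figures.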

Additional observations from a re-analysis of the deposited data

How the results depend on the processing

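With array weights, limma called 369 genes lower and 262 higher, with no filter on low values 23 lower and 7 higher, and with 1 library left out from 0 to 52 lower (22 without cKO1, 52 without cKO2) and from 0 to 70 higher (2 without cKO1, 70 without cKO2). Among the members, array weights called 7 lower (Gsta1, Gstm1, Gsta3, Ugt1a1, Cyp2r1, Gsta4 and Cyp2c69, against 2.27% of all genes) and 1 higher (Cyp2j6, against 1.61%). With 1 library left out, from 0 to 3 members were called lower (Gstm1, Gstm2 and Cyp2c69 without cKO2, against 0.32%) and 0 higher. Before adjustment, p was under 0.05 in 6 to 32 members that were lower, with 32 without cKO2 and 6 or 7 without any other library. Without cKO1, 42 members were below 0. The family medians ran from −0.78 to −0.15 for CYP and from −1.35 to −0.46 for UGT, highest without cKO1 for both, from −0.56 to −0.20 for GST, and from −0.60 (without cKO2) to −0.075 (without cKO1) for SULT. The median of the NRF2 targets ran from −0.14 to −0.0096 (without cKO2). Nedd4l ran from −1.28 (adjusted p = 0.0131, without cKO2) to −0.79, and was at −1.09 with array weights (adjusted p = 0.0212). Some named members changed sign among the alternatives. Ugt2b34 ran from −0.54 without cKO2 to 0.062 without cKO1, and Sult1a1 from −0.60 to 0.048 without cKO1. Cyp2c65 ran from −1.71 to 0.17, Cyp2c68 from −1.58 to 0.017, Cyp4f18 from −0.062 to 0.54 and Gstm5 from −0.084 to 0.24. The cause was not tested. Deviations of same-numbered libraries from their genotype means correlated at −0.03, −0.09 and −0.06. These values gave no sign of pairing by replicate number, but with 3 libraries per genotype they cannot exclude it. With the replicate block limma called 0 genes. Before adjustment, p was then under 0.05 in 12 lower members (against 6.48% of all genes) and 1 higher member (against 7.41%). The count tests planned with edgeR and DESeq2 were not run, because the number of reads behind the smallest value is not given in the sources used here. Depth limits the members near the minimum, such as Cyp2c69 and Cyp2u1, and in fits without 1 library the genotype with 2 libraries has a less certain mean.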

Other observations

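CYP genes outside families 1 to 4, some of which act on sterols, bile acids or retinoids, were not members, and 6 of them were tested. Of these, 4 were lower and 2 higher in cKO colon, with a median log2 fold change of −0.10, and 0 passed an adjusted p of 0.05 or an unadjusted p under 0.05 in limma. Cyp51, which acts in cholesterol synthesis, measured 4171, 3320 and 4005 in cKO and 3855, 3462 and 3158 in WT libraries. Cyp20a1 measured 326, 323 and 338 in cKO and 392, 372 and 368 in WT libraries, without overlap, at a log2 fold change of −0.20. Cyp7b1, an oxysterol hydroxylase, was highest in cKO1, at 104, against 7.74 and 26.8 in the other cKO libraries and 13.8, 27.9 and 17.0 in the WT libraries.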
